A study of Zea mays with 16 samples.

Results

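The transcripts described here are those that were low in ms32 mutant anthers of maize relative to fertile siblings of the same family, but not low in ms23 mutant anthers relative to their own siblings. They are represented by 108 of the 42034 probes of a two-colour oligonucleotide array and carry 106 target names. The members were chosen on measured values. The log2 ratio of mutant over fertile sibling, taken from the signals as processed by the scanner software, had to be at or below -1 on both arrays of the ms32 family and above -0.5 on both arrays of the ms23 family. The sibling had to be well above background, by the scanner software's mark, on all 4 of these arrays, a condition that left 30240 probes eligible. The ratios to siblings are therefore given as a description, with no test.

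MS23 and MS32 are basic helix-loop-helix transcription factors of maize. Both are needed for the tapetum, the innermost layer of the anther wall, which surrounds the meiocytes, nourishes them and secretes material for the pollen wall. In plants that lack either factor the tapetal cells do not differentiate and the anthers shed no pollen. In the maize anther MS23 is known to act before MS32. The question addressed here is which transcripts were lost with MS32 but kept without MS23.

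RNA came from whole anthers of 1.5 mm, with no other treatment. The 16 labelled samples comprised 6 of ms32 mutants, 2 of fertile siblings of the ms32 family, 6 of ms23 mutants and 2 of fertile siblings of the ms23 family. The labels name the genotype only as ms23 or ms32 mutant or fertile sibling, and give no allele, inbred background or sibling genotype. Both mutants were hybridised together on the 4 arrays of slide 1. On slide 2, ms32 mutant and ms32 sibling shared 2 arrays, and ms23 mutant and ms23 sibling shared the other 2. The dyes Cy3 and Cy5 were swapped within each pair of arrays. The titles give both dyes of a swap the same replicate number, so that slide 1 holds replicates 1 and 2 of each mutant and slide 2 holds replicate 3 of each mutant and replicate 1 of each sibling. The series text, in contrast, speaks of 2 biological replicates for each comparison of a mutant with its sibling. Which of these holds is not settled by the sources used here. The dye swaps were counted as technical, and p-values measure the spread between these samples, which may itself be technical because nothing says that the numbered replicates came from separate plants. In whole anthers, fewer cells of a type and less RNA per cell cannot be told apart.

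The targets of the members are named by single expressed sequence tags or by TC numbers. TC numbers are the form that gene indices give to consensus sequences assembled from such tags. Of the 108 members, 88 carried TC names and 20 carried the name of a single tag. None of the 108 names matched a symbol, synonym or accession of the maize RefSeq table (assembly Zm-B73-REFERENCE-NAM-5.0), and 4 probes of the whole array did. The members are therefore given by target name, with no function. No probe was tied to the ms23 or ms32 gene, so the mutated genes could not be used to check the labels. Of the 23 symbols listed for tapetum and anther wall, 0 had a probe by name. Of the 13 symbols listed for meiocytes 1 did, that of AM1, a gene of meiotic initiation. The 3 AM1 probes had direct log2 ratios of ms23 over ms32 mutant of -0.13, -0.33 and 0.26, and limma called none of them (adjusted p = 0.562, 0.132 and 0.162).

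Median spot intensities of the samples lay between 94 and 232.25, and the share of probes well above background in a sample was 81.19% to 94.79%. Across probes, the log2 ratios of the 2 ms32 arrays correlated at 0.139 and those of the 2 ms23 arrays at 0.519, whereas pairs of slide 1 arrays correlated at 0.649 to 0.813. Probes share their arrays and are not independent replicates.

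Against fertile siblings the members had median log2 ratios of -1.78 and -1.89 on the 2 ms32 arrays, with ranges of -7.93 to -1.03 and -11.0 to -1.01. On the ms23 arrays the same probes had medians of 0.37 and 0.23. The mean ms32 ratio was at or below -2 for 46 members and at or below -3 for 21, and 15 members were at or below -3 on both arrays. In the ms23 family 57 members were above 0 on both arrays and 7 were at or above 1 on both. These are the values that chose the members.

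The size of a fall depended on how dim signals were treated. After normexp background correction with an offset of 50 and loess normalization, which pull dim spots towards a common floor, the median ms32 ratios were -1.21 and -1.01, and 45 of the 108 members stayed at or below -1 on both arrays. The rule applied to these loess ratios chose 60 probes, of which 42 are members. The ms32 siblings of 27 members had a mean level under 7, where a level is the log2 normalized intensity of a sample. No member was saturated in any sample. On slide 2, 85 members were well above background in both ms32 mutant samples, 15 in 1 and 8 in neither, and the size of a ratio to a spot without that mark is uncertain. This holds for the ratio of -7.93, that of TC305816. The mutant spot behind the -11.0 of DN227504 had the mark, but that ratio was -7.85 after loess, so its size too depended on the treatment of dim signals.

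At the threshold of -1 the members just inside were TC285554, TC284112 and TC287260, whose weaker ms32 ratios were -1.027, -1.018 and -1.01. Just outside lay CF384561 at -0.993, AI065875 at -0.9908 and TC311734 at -0.9886. At the threshold of -0.5 for the ms23 arrays, TC294929, CO461337 and TC305299 were inside with lower ratios of -0.4841, -0.4654 and -0.4635. TC306975, TC305108 and AI902138 were outside at -0.5212, -0.5042 and -0.5033. TC284112 had ratios of -3.48 and -1.02 on its 2 ms32 arrays, a wider gap than that between the probes inside and outside the threshold.

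**Figure D1:**
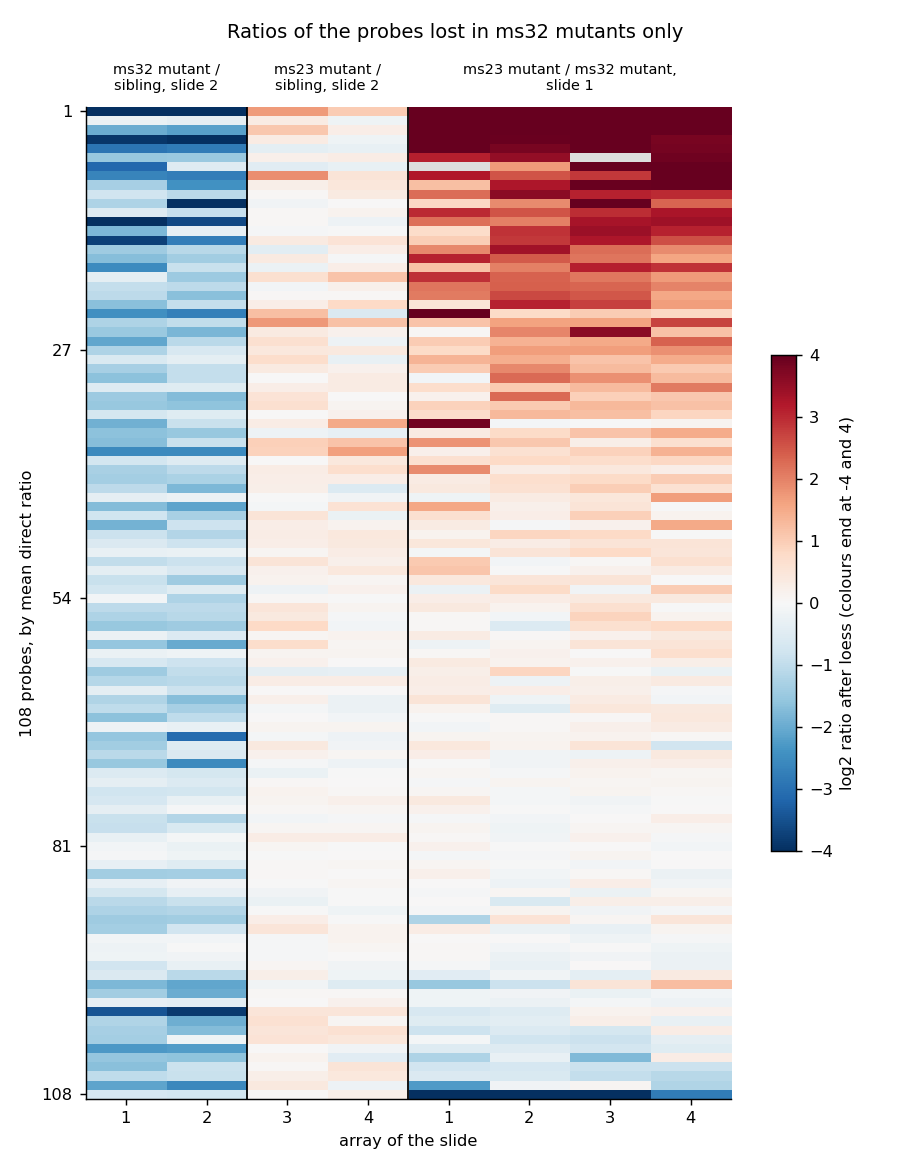
Log2 ratios after loess of the 108 probes (rows, ordered by the mean direct ratio) on the 8 arrays (columns, by slide and array), from blue (-4 or lower) to red (4 or higher), with grey for a spot left out as an outlier. The first 2 columns come from the arrays that chose the members and are blue to nearly white, the next 2 are pale, and on slide 1 red at the top gives way to pale colours in the lower rows, where the median direct ratio over all members was 0.27.

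The measure that did not choose the members was the direct ratio of ms23 over ms32 mutant on slide 1, which held other samples. A transcript low in ms32 mutants alone, with equal levels in the siblings of both families, would have a positive direct ratio. Of the 108 members 106 could be tested, and TC284112 and TC304810 could not because 1 of their slide 1 spots was marked as an outlier. Limma called 26 of the 106 higher in ms23 than in ms32 mutants, or 24.5% (adjusted p under 0.05 over all 38609 probes tested; n = 2 averaged replicates). Over all probes tested 5.58% were called higher, and over the probes eligible for the rule 6.45%. Limma called 3 members lower, or 2.83%, where the share was 5.98% over all probes and 6.75% over the eligible ones. The remaining 77 members were not called, which does not show equal levels. In simulated data the fit recovered 0% of log2 changes of 1 and 56.7% of changes of 2. The count of 26 became 48 with a normexp offset of 10 (4231 of 38609 probes were then higher). A fit that took the 4 arrays as independent, with a dye term, counts dye swaps as replicates. It called 32 members higher (2723 of 39343 probes), and 14 without array 4 of slide 1 (872 of 38632). In the table the authors deposited limma called 0 probes, members included, with 7728 probes at an unadjusted p under 0.05.

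The direct ratio of the members had a median of 0.27 and ranged from -4.05 to 6.73, against a median of 0.01 over all probes tested. It was positive for 80 members and negative for 26, against 20044 and 18565 of all 38609 probes tested. On all 4 arrays it was at or above 1 for 20 members, where 2.07% of all probes tested reached this. A ratio of at least 8-fold was measured for 7 members and 0.614% of all probes; 6 of the 7 were called, and the other, TC296742, named after its values were seen, lay at a log2 value of 3.11 (limma adjusted p = 0.0543, SE 0.51; n = 2). For 57 of the 106 members the ratio lay within 0.5 of 0, as it did for 77.3% of all probes tested. At an unadjusted p under 0.05, 48 members had positive and 7 negative ratios, against 14.8% and 16.1% of all probes.

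Probes lost in ms23 mutants only, found by the same rule with the families exchanged, had the opposite balance. Limma called 25 of these 131 probes lower in ms23 mutants and 4 higher, with a median direct ratio of -0.23. The probes lost in both mutants had 16 called higher and 12 lower of 309 tested, with a median of -0.01. The difference between these groups was not tested.

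**Figure D2:**
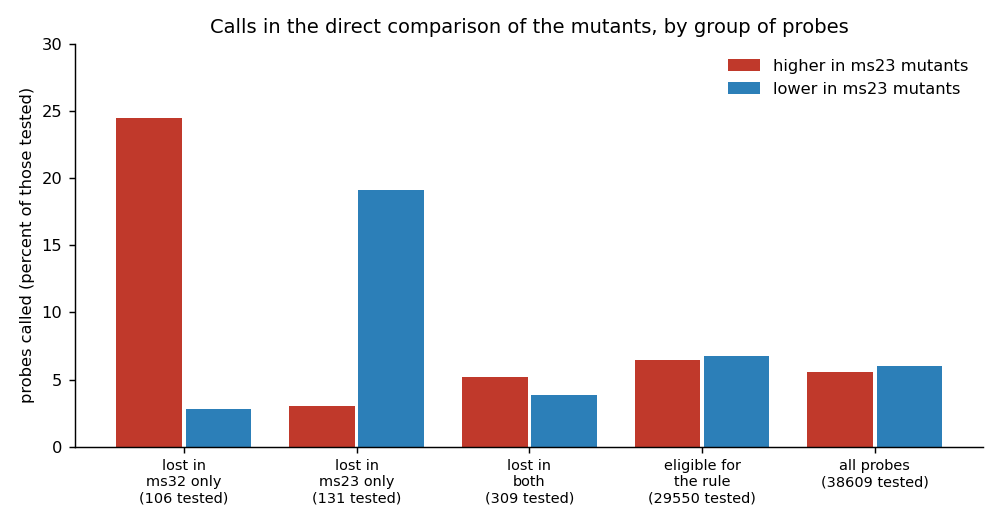
Percent of tested probes called higher (red) or lower (blue) in ms23 than in ms32 mutants on slide 1 (limma, adjusted p under 0.05) for 3 groups of probes, for the probes eligible for the rule and for all probes. Of the probes lost in ms32 mutants only, 24.5% were called higher and 2.83% lower; of those lost in ms23 mutants only, 3.05% and 19.1%.

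DN227504 had the highest direct ratio and also the deepest loss. Its level was 14.98 and 14.08 in the ms32 siblings, and in the ms32 mutants it was 6.22 at the lowest, 8.25 at the median and 8.79 at the highest. In the ms23 family it was 13.54 and 13.75 in the siblings, and 14.66, 15.01 and 15.28 (lowest, median and highest) in the mutants. All 6 ms32 mutant samples, from both slides, lay below all 10 others. The direct log2 ratio was 6.73 (SE 0.225, limma adjusted p = 0.00801; n = 2), or 106-fold, and was 6.50, 6.21, 7.54 and 6.67 on the 4 arrays. Levels set across the slides compare samples hybridised on separate arrays.

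TC284792 was also lowest in the ms32 mutants, at a lower signal and with another order of the siblings. The ms32 siblings had levels of 9.20 and 9.48 and the ms32 mutants 5.91, 6.45 and 6.69 (lowest, median and highest). The ms23 siblings had 10.87 and 10.85 and the ms23 mutants 9.75, 10.52 and 11.08. The ms32 siblings of TC284792 thus lay below all ms23 samples, with a sibling difference of -1.52 (ms32 minus ms23). The ms32 mutants did not overlap any other group, and the direct ratio was 4.01 (SE 0.103, limma adjusted p = 0.00747; n = 2), with 4.02, 3.80, 4.39 and 3.84 on the arrays.

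TC305816 was measured by 2 member probes, which share a target and are not independent transcripts. With probe A_92_P024374 the ms32 siblings were at 9.64 and 11.00, the ms32 mutants at 5.75, 6.67 and 7.92, the ms23 siblings at 11.15 and 10.96 and the ms23 mutants at 10.62, 11.38 and 11.87. With probe A_92_P008446 the same groups were at 7.80 and 7.41, at 5.73, 6.22 and 6.78, at 8.69 and 8.45, and at 7.30, 8.77 and 9.46. Both probes put the 6 ms32 mutants below every other sample. Their direct ratios were 4.34 (SE 0.211, limma adjusted p = 0.0109) and 2.32 (SE 0.266, limma adjusted p = 0.033), both with n = 2, and A_92_P008446 missed the threshold after scaling between arrays (limma adjusted p = 0.0591) and without array 2 or 4 of slide 1 (limma adjusted p = 0.0519 and 0.0506).

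TC299079 was also low in all ms32 mutants, at 5.95, 6.28 and 7.38 (lowest, median and highest), below 9.68 and 9.16 in the ms32 siblings. The ms23 siblings had 8.48 and 8.30 and the ms23 mutants 8.35, 8.86 and 9.64. The highest ms32 mutant sample was that of slide 1 array 1, where the direct ratio was 0.97 against 2.82, 3.24 and 2.58 on the others. The fitted ratio was 2.40 (SE 0.295, limma adjusted p = 0.0359; n = 2). With the replicate number as a block it lost the threshold (limma adjusted p = 0.0563), as it did without replicate 2 (0.067) and without array 2 or 4 of slide 1 (0.118 and 0.139).

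In all, 19 members had every measured ms32 mutant level below every measured level of the 10 other samples, and 16 of these were called higher in the direct comparison. TC304810, measured in 5 of the 6 ms32 mutant samples, was among the 19. Among the 30240 eligible probes 102 had this order. The order shares its slide 2 samples with the rule and its slide 1 samples with the direct test, and is a description.

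Some members called higher already had lower levels in the fertile siblings of the ms32 family than in those of the ms23 family. Of the 26 called members, 8 had an ms32 sibling level lower by at least 1, TC284792 among them. For TC310680 the ms32 siblings were at 6.25 and 6.32 and the ms32 mutants at 5.69, 5.89 and 6.14, whereas the ms23 siblings were at 10.59 and 11.27 and the ms23 mutants at 10.87, 11.03 and 11.91. The direct ratio was 5.38 (SE 0.137, limma adjusted p = 0.00747; n = 2). Its fall within the ms32 family was -2.69 and -1.46 in the processed signals but -0.28 and -0.35 after loess, and it was well above background in 2 of the 6 ms32 mutant samples, so the sizes are uncertain. The sibling levels of TC310680 differed by -4.64 (ms32 minus ms23).

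TC279711 was intermediate. Its level was 7.98 and 8.29 in the ms32 siblings, 5.78, 6.02 and 6.19 in the ms32 mutants, 10.86 and 10.85 in the ms23 siblings and 10.45, 11.14 and 11.95 in the ms23 mutants. The ms32 mutants lay below their siblings, which in turn lay below all samples of the ms23 family. The direct ratio was 5.05 (SE 0.156, limma adjusted p = 0.00748; n = 2). TC279711 was well above background in 3 of the 4 ms32 mutant samples of slide 1.

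TC310574, TC289448 and CO448968 had the same order of siblings, with sibling differences of -3.04, -1.45 and -1.93. For TC310574 the ms32 siblings were at 8.99 and 9.03 and the ms32 mutants at 6.25, 8.20 and 9.95, an overlap within the family that came from slide 1 array 1. Its ms23 siblings were at 10.49 and 13.60, with the Cy5 sample the higher one, and its ms23 mutants at 10.76, 12.76 and 14.11. The direct ratio of TC310574 was 3.34 (SE 0.28, limma adjusted p = 0.021; n = 2), which missed the threshold without array 1 or 3 of slide 1 (limma adjusted p = 0.0808 and 0.0824).

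For TC289448 the ms32 siblings were at 7.59 and 8.11, the ms32 mutants at 6.41, 6.92 and 7.57, the ms23 siblings at 9.64 and 8.96 and the ms23 mutants at 9.29, 9.60 and 10.56. The families did not overlap, and the direct ratio was 2.98 (SE 0.0929, limma adjusted p = 0.00748; n = 2). For CO448968 the ms32 siblings were at 6.60 and 6.86, the ms32 mutants at 5.77, 6.02 and 6.50, the ms23 siblings at 8.33 and 8.99 and the ms23 mutants at 8.37, 9.08 and 9.45. Here too the families were apart, with a direct ratio of 2.94 (SE 0.132, limma adjusted p = 0.00982; n = 2). The loss of CO448968 within the ms32 family was -3.46 and -3.70 in the processed signals and -0.53 and -0.93 after loess. Neither ms32 mutant sample of slide 2 was well above background for CO448968, so the size of this loss is uncertain.

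TC314515 had the reverse order of siblings. The ms32 siblings were at 13.08 and 14.36, above the ms23 siblings at 10.78 and 10.28. The ms32 mutants were at 7.37, 8.0 and 10.74 and the ms23 mutants at 9.74, 10.63 and 10.85. On slide 1 the ms32 mutants lay below all ms23 samples, while on slide 2 they were higher, at 8.71 and 10.74. The direct ratio was 2.73 (SE 0.35, limma adjusted p = 0.0384; n = 2), which missed the threshold without array 3 or 4 of slide 1 (limma adjusted p = 0.0653 and 0.0628).

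**Figure D3:**
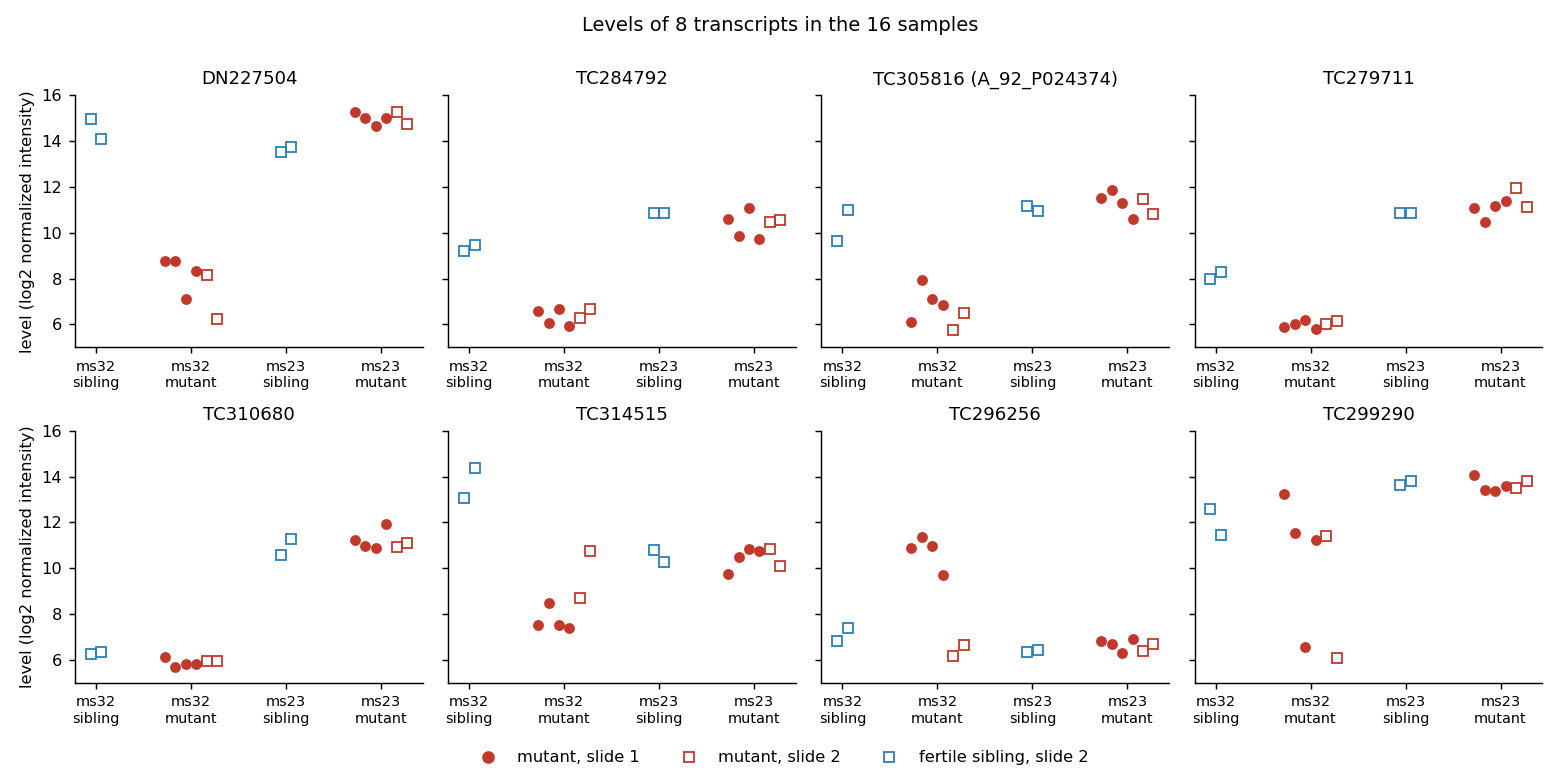
Level (log2 normalized intensity) of 8 transcripts in the 16 samples by group, with filled circles for mutants on slide 1, open red squares for mutants on slide 2 and open blue squares for fertile siblings on slide 2. DN227504 and TC305816 are low in the 6 ms32 mutant samples alone. TC284792, TC279711 and TC310680 are lowest in these samples, and their ms32 siblings lie below all ms23 samples. TC314515 is highest in the ms32 siblings, and TC296256 and TC299290 differ among the ms32 mutant samples.

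The called and uncalled members had different medians of the sibling levels. The sibling level, ms32 minus ms23, had a median of -0.61 over the 26 members called higher, of 0.46 over the 77 not called and of 1.22 over the 3 called lower. Over the eligible probes the median was -0.03. Among the members not called, 23 had a sibling level higher by at least 1 in the ms32 family, 4 had one lower by at least 1, and 50 differed by less than 1. This split is in part arithmetic, since a direct ratio near 0 together with a fall in 1 family requires unequal siblings, up to the spread between replicates and slides.

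TC302573, named after its values were seen, is the extreme of this kind. The sibling difference of TC302573, 4.82 (ms32 minus ms23), was the highest of the 108 members. Its level was 13.75 and 13.66 in the ms32 siblings, and 9.22, 9.74 and 10.30 (lowest, median and highest) in the ms32 mutants. The ms23 siblings were at 9.13 and 8.64 and the ms23 mutants at 8.83, 9.25 and 10.10. The ms32 siblings stood apart from the other 14 samples, among which mutants and fertile siblings overlapped. Its direct ratio was -0.21 (95% confidence interval -0.88 to 0.46, limma adjusted p = 0.618). Over all members, both ms32 sibling levels were above both ms23 sibling levels for 56 and below them for 25. The eligible probes divided into 7126 and 7295. The sibling samples enter the ratios that chose the members, so this split is not independent of the rule and is a description.

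The ms32 mutant replicates that the rule did not use gave levels below the siblings for most members. All measured levels among the 4 ms32 mutant samples of slide 1 lay below both ms32 siblings for 73 of the 108 members, and above both for 2. Among the eligible probes all measured levels lay below for 3294 of 30240. These counts set slide 1 against the sibling samples that chose the members, so they are not independent of the rule.

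Of the 3 members called lower in ms23 mutants, TC296256 was the extreme. Its ms32 siblings were at 6.84 and 7.38 and its ms23 samples between 6.29 and 6.91. The ms32 mutants of slide 1 were at 10.88, 11.38, 10.97 and 9.70, whereas those of slide 2 were at 6.17 and 6.66. Replicates 1 and 2 of the ms32 mutant were thus high and replicate 3, the one compared with the siblings, was low. The direct ratio was -4.05 (SE 0.197, limma adjusted p = 0.0109; n = 2), or 16.6-fold lower in ms23 mutants. It missed the threshold without array 3 of slide 1 (limma adjusted p = 0.0525). For TC296256 the label of a loss in ms32 mutants rests on replicate 3 and goes against the other replicates.

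The other members called lower moved less. TC314082 had a direct ratio of -0.79 (SE 0.0944, limma adjusted p = 0.0345; n = 2). Its ms32 mutants were at 6.98, 7.40 and 7.78, between the ms32 siblings at 8.73 and 8.63 and the ms23 samples, none of which was above 6.94. TC314082 missed the threshold without array 1, 3 or 4 of slide 1 (limma adjusted p = 0.0659, 0.0765 and 0.0593) and without replicate 1 or 2 (0.0744 and 0.106). For TC294929 the direct ratio was -0.76 (SE 0.087, limma adjusted p = 0.0331; n = 2), but its arrays gave -1.25, -0.31, -1.77 and 0.31. With the replicate number as a block its adjusted p was 0.106 in limma, and it missed the threshold without any 1 of the 4 arrays.

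TC299290, among the deepest losses by the mean, was not called. Its ms32 ratios to the sibling were -1.15 and -9.69, and the mutant spot behind the second was not well above background. The size of that ratio is uncertain, and the place of TC299290 among the deepest losses rests on it. The ms32 siblings were at 12.60 and 11.44, and the ms32 mutant samples were at 13.23, 11.53, 6.55 and 11.24 on slide 1 and 11.39 and 6.06 on slide 2. A low and a high value occurred within replicate 2 and again within replicate 3, with the Cy3 sample low in each, whereas in replicate 1 the Cy3 sample was the higher one. The ms23 samples lay between 13.39 and 14.05. The direct ratio was 2.97 (SE 0.899, limma adjusted p = 0.142; n = 2). It passed with processed signals (limma adjusted p = 0.0377) and with an offset of 10 (0.0106), as well as without array 1 of slide 1 (limma adjusted p = 0.0165) or array 3 (0.0453), where it was 4.47 and 1.47.

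**Figure D4:**
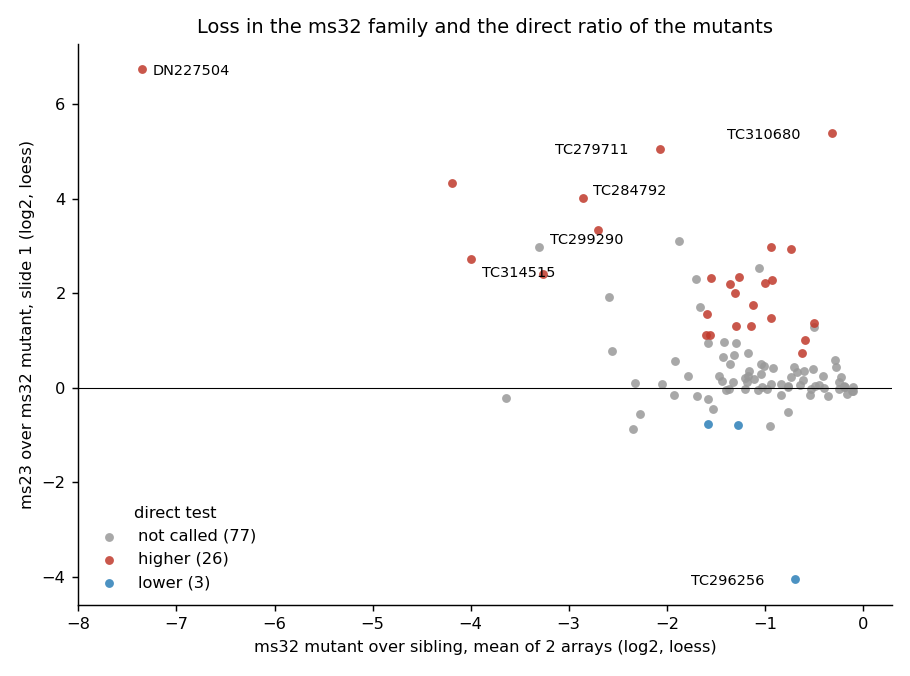
Mean log2 ratio of ms32 mutant over fertile sibling after loess (horizontal, 2 arrays of slide 2) and fitted log2 ratio of ms23 over ms32 mutant (vertical, slide 1) for the 106 tested members, coloured by the limma call. The members called higher run from DN227504 at -7.35 and 6.73 to TC310680 at -0.32 and 5.38, and 77 members lie uncalled, most of them near 0 on the vertical axis.

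A target name with more than 1 probe allows a check within the array. Of the members 20 shared a name with another probe, over 18 target names. For TC281993 and TC305816 both probes were members. For the other 16 names the second probe did not meet the rule, and for 9 of these it was not well above background in both ms32 siblings.

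TC300366 had ms32 ratios of -1.32 and -1.10 and a direct ratio of 1.31 (SE 0.122, limma adjusted p = 0.0243; n = 2). Its levels were 12.01 and 11.82 in the ms32 siblings, 10.02, 11.15 and 12.61 in the ms32 mutants, 12.30 and 12.65 in the ms23 siblings and 11.93, 12.74 and 13.64 in the ms23 mutants, with overlap between the groups. Without array 1 or 3 of slide 1 the call of TC300366 was lost (limma adjusted p = 0.0796 and 0.0994), as it was without replicate 2 (0.0514). Its second probe was well above background in 0 of the 2 ms32 siblings. The second probe of TC314515 was likewise well above background in 0 of 2, so neither could show a fall.

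The second probe of TC310574 was bright enough in both ms32 siblings and had ms32 ratios of 1.18 and 0.70, against -4.07 and -5.49 for the member. Its direct ratio was 1.65 (limma adjusted p = 0.0202), in the direction of the member's 3.34. TC304810, which was not tested, had ms32 ratios of -1.71 on both arrays and direct ratios of 3.10, 3.51 and 3.88 on the 3 arrays that measured it. Its levels were 9.21 and 9.91 in the ms32 siblings and 7.50 to 8.52 in 5 ms32 mutant samples, with 10.55 and 11.52 in the ms23 siblings and 10.68 to 12.39 in 5 ms23 mutant samples. The ms32 mutants of TC304810 lay below all other samples. Its second probe had ms32 ratios of -0.29 and -0.22 and a direct ratio of 0.74 (limma adjusted p = 0.0371). The second probe of TC304810 thus fell short of the member's ms32 ratios, and that of TC310574 had ms32 ratios of the opposite sign.

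The second probe was well above background in both ms32 siblings for 7 names in all, and the remaining 5 are given after their values were seen. For TC312927 the second probe had ms32 ratios of -0.90 and -2.20 and a direct ratio of -3.62 (limma adjusted p = 0.00747), whereas the member had a direct ratio of 0.64 that was not called (limma adjusted p = 0.0625). The signs also differed for TC299621, with -0.17 for the second probe and 0.45 for the member, neither of them called. The second probes of TC315341, TC285554 and TC281667 had direct ratios of 0.47, 0.15 and 0.11, none called, beside 1.48, 0.01 and 0.08 for the members. Their ms32 ratios were 0.05 and 0.16, -0.07 and -0.44, and -0.53 and -0.87. The second probe of TC299621 had ms32 ratios of -0.3 and -0.3. Among the 7 names, only the second probe of TC312927 had an ms32 ratio at or below -1. Probes of a shared name thus differed for most of these names in the ms32 family, and for several in the direct comparison.

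Across the alternative settings, some calls passed in each limma fit of the scanner files that kept both replicates of slide 1. These fits include those without 1 array of slide 1, in which dye swaps count as replicates. The members with such calls were DN227504, TC310680, TC279711, TC305816 (probe A_92_P024374), TC284792, TC289448 and CO448968. In the table of normalized values that the authors deposited limma called 0 probes of the array at an adjusted p under 0.05, with 7728 at an unadjusted p under 0.05. There these members had adjusted p-values from 0.0543 to 0.2, with direct ratios from 3.10 to 8.32.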

How the data were processed

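RNA of whole maize anthers was measured on two-colour arrays, 8 in all, on 2 slides. Per the file headers, images were quantified with Agilent Feature Extraction. The deposited scanner files hold linear intensity values of spots and local background, a processed intensity made by the same software, and its marks for outlier, saturated and well-above-background spots. The authors also deposited a table of normalized intensity values, 1 column per sample; the submitters' processing notes name limma, without saying which normalization was applied.

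The members were found from the processed intensities, with 1417 control spots and outlier-marked spots left out. Other values came from median spot and background intensities corrected by normexp (offset 50, fitted on all spots) and normalized by loess in limma 3.58.1 (R 4.3.3). The 1322 outlier-marked spots stayed out. Levels of single samples were further scaled between the 8 arrays (Aquantile) and are not compared between probes. For the direct comparison the dye-swapped arrays of a replicate number were averaged into 1 replicate (n = 2), since titles give both dyes 1 number, and limma was fitted to all 38609 probes that were measured in both replicates and passed the background mark in 50% or more of either mutant's slide 1 samples. Benjamini-Hochberg adjustment was made over these probes and a call needed an adjusted p under 0.05. The fit had 1 residual and 2.264 prior degrees of freedom. Self-tests ran on simulated data with 200 changed probes. The fit recovered 0% of log2 changes of 1, 56.7% of changes of 2 and 90.9% of changes of 4. It made 3 false calls among 101. Each slide 1 array held same-numbered samples of both mutants, so replicates are paired within the arrays by design.

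The members and lists were chosen with earlier results of these data known. Probes are named where they are among the 10 highest or 5 lowest called direct ratios, the 5 deepest mean falls, the 3 nearest to each side of a threshold, or members sharing a target name with another probe (the 5 brightest targets). No probe sequences or gene descriptions were used. Alternatives covered background correction, normalization, filters, fits, replicates, arrays and the thresholds of the rule.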

Additional observations from a re-analysis of the deposited data

Results flagged for a closer look

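Of 49 groups of levels tested with Dixon's ratio, 2 held a sample far from the others of its group, and chance alone would give this in about 1 of 20 groups. The ms23 mutant sample of slide 1 array 4 had a TC310680 level of 11.91, while the other 5 lay between 10.87 and 11.24. The ms32 mutant sample of slide 1 array 1 had a TC299079 level of 7.38, while the other 5 lay between 5.95 and 6.39. The gaps made up 0.64 and 0.688 of the range, above the critical value of 0.625 for 6 samples. Differences between the families' ratios to siblings were not listed, because they chose the members.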

How the results depend on the processing

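With other settings the members called higher in ms23 than in ms32 mutants outnumbered those called lower in each limma fit of the scanner files. No direct ratio changed sign among the 16 named members that were followed across the settings. The main limma fit called 4462 probes and, of the members, 26 higher and 3 lower, with a median direct ratio of 0.27. Processed signals gave 41 higher and 7 lower (median 0.74), where 3036 of all 38609 probes were higher and 3383 lower. An offset of 10 gave 48 and 7 (median 0.48, with 8781 probes called). Median centring gave 42 and 10 (10217 probes, of which 71.6% were lower in place of 51.7%). An intensity trend with robust variances gave 42 and 7 (7792 probes). In these 4 settings all 26 members were still called. Scaling between arrays and a strict filter on dim probes each gave 5 lower, the filter with a median of 0.35. Over all probes, 2209 of 38609 were lower with the scaling and 2879 of 33073 with the filter. All 8 arrays with a dye term, with or without the replicate block as a random effect, called 8272 probes; its correlation was estimated at -0.101 and set to 0. With the replicate number as a fixed block 27 members were higher, 21 of them among the 26, and 3 lower. Over all 38609 probes the fixed block gave 1846 higher and 2177 lower. The authors' deposited table gave 0 calls over all probes (7728 at an unadjusted p under 0.05), 0 members higher and 0 lower, with a median of 0.59; the cause was not tested. Thresholds of -1.5 and -0.25 in the rule left 12 higher and 1 lower of 37 tested (median 0.43), -1 and -0.25 gave a median of 0.38, loess ratios in the rule 13 higher of 57 tested (median 0.13), and members above background in every ms32 mutant sample of slide 1 a median of 0.35. Leaving out 1 replicate or 1 array of slide 1 gave 1779 to 2877 probes called, 14 to 32 members higher, 0 to 2 lower and medians of 0.24 to 0.35. Without replicate 1 or 2, fitted with slide 2, limma called 2792 and 1901 probes and 2 and 1 members lower. Without array 4 of slide 1 it called 14 members higher, all among the 26, and 1 lower; without array 3 it called 21 higher and 0 lower, without array 1 it called 1 lower, and without array 2 it called 2. Without a replicate the main fit has no residual degrees of freedom, so it gave values with no test. The fits without an array took the arrays as independent with a dye term, so dye swaps counted as replicates. That setting called 32 members higher with all 4 arrays. The fits without a replicate kept 1 dye-swapped pair of slide 1. They drew their spread in part from the slide 2 arrays that chose the members. The planned random block on the 4 slide 1 arrays was not run because they are too few to estimate it; the fixed block, the block on 8 arrays, the fits without a replicate that pool slide 2 and those without an array were chosen after seeing the data.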
